A study of Ovis aries with 24 samples.

Results

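The genes described here are 8 heat shock chaperones or chaperone partners (HSPA1A, HSPA8, HSPH1, DNAJB1, HSP90AA1, HSPD1, HSPE1 and BAG3) and 2 cold-inducible RNA-binding genes, CIRBP and RBM3. They were chosen by name as a textbook temperature-responsive group, 10 genes of the 27716 entries in each count table. Earlier results of these data were known when the choice was made. HSPE1, the co-chaperonin of HSPD1, was not found by its symbol in either table and is not analysed here. The other 9 were in both tables and passed the filter on low counts in both tissues.

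Chaperones bind unfolded proteins and help them fold. When unfolded proteins build up in heat, poor oxygen supply or other stress, heat shock factor 1 (HSF1) is released and switches on the inducible chaperone genes, chief among them HSPA1A, together with its helper DNAJB1. CIRBP and RBM3 answer temperature in the opposite sense. Their transcripts and proteins accumulate under mild cooling and fall in heat, and both proteins bind RNA and support translation and survival of cooled cells, neurons among them.

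Messenger RNA of preterm lambs was sequenced from liver and from brain, where the white matter along the lateral ventricles (periventricular, PVWM) was taken, with 4 animals per group and tissue. Budesonide lambs were ventilated and received 2.5 mL/kg of poractant alfa, a pig-derived lung surfactant, into the trachea, mixed with 0.25 mg/kg of the glucocorticoid budesonide. Surfactant lambs were ventilated and received the same surfactant dose without budesonide. Unventilated lambs had neither ventilation nor either drug. The ventilated lambs were of 126 days of gestation apart from 1 male of 127 days in each ventilated group, and the unventilated lambs were of 127 or 128 days, so gestational age and ventilation can hardly be told apart. In each tissue the unventilated group held 2 labelled males, 1 female and 1 animal whose label gave no sex. For liver that animal was 060, which the label of its PVWM library gives as female. Of 13 animals, 11 gave both tissues, and animals are called here by their numbers.

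Total counts were 16.1 to 23.2 M per liver library and 14.9 to 17.5 M per PVWM library (M, 1e6). Levels are counts per 1e6 counts (CPM) after scaling within each tissue, so that a level in liver and a level in PVWM were scaled separately. Hepatocyte markers summed to between 179947 and 264867 CPM in liver and to between 99.9 and 197 CPM in PVWM, where astrocyte markers summed to between 3650 and 5986 CPM. In such bulk tissue, more cells that express a gene and more RNA per cell cannot be told apart.

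The inducible chaperones varied widely between livers of the same group. HSPA1A, the stress-inducible HSP70, stood at 30.3, 211, 463 and 54.3 CPM in budesonide livers (animals 031, 048, 050 and 054). It stood at 16.5, 258, 705 and 149 CPM in surfactant livers (animals 007, 032, 049 and 051). In unventilated livers it stood at 39.4, 161, 289 and 39.4 CPM (animals 057, 058, 059 and 060). Each group held low and high livers, and the 3 ranges overlapped. The highest level was 15.3 times the lowest among budesonide livers, 42.8 times among surfactant livers and 7.35 times among unventilated livers. Among the 9289 genes with a mean of at least 10 CPM in liver, HSPA1A had the 21st largest spread within groups, with an SD of 1.88 on the log2 scale against a median of 0.29 over those genes.

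DNAJB1, the J-domain protein that hands clients to HSP70 and starts its ATP cycle, followed the same animals. Its levels were 36.3, 134, 354 and 42.8 CPM in budesonide livers, 23.2, 183, 503 and 157 CPM in surfactant livers and 49.7, 99.7, 196 and 44.9 CPM in unventilated livers. HSPH1, the HSP110 that exchanges nucleotide on HSP70, was at 36.6, 199, 312 and 31.4 CPM in budesonide livers, 18.2, 138, 474 and 269.9 CPM in surfactant livers and 29.0, 51.2, 67.1 and 22.6 CPM in unventilated livers. The same low livers recur in both genes, and animal 049 was the highest for both. HSPA8, the constitutive HSP70, ranged 5.32-fold over the 12 livers, from 201 CPM in animal 007 to 1071 CPM in animal 051. HSP90AA1, the inducible cytosolic HSP90, ranged 6.30-fold, from 533 CPM in animal 007 to 3359.6 CPM in animal 049. HSPD1, the mitochondrial chaperonin HSP60, ranged only 2.54-fold, from 43.2 to 109.7 CPM.

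**Figure D1:**
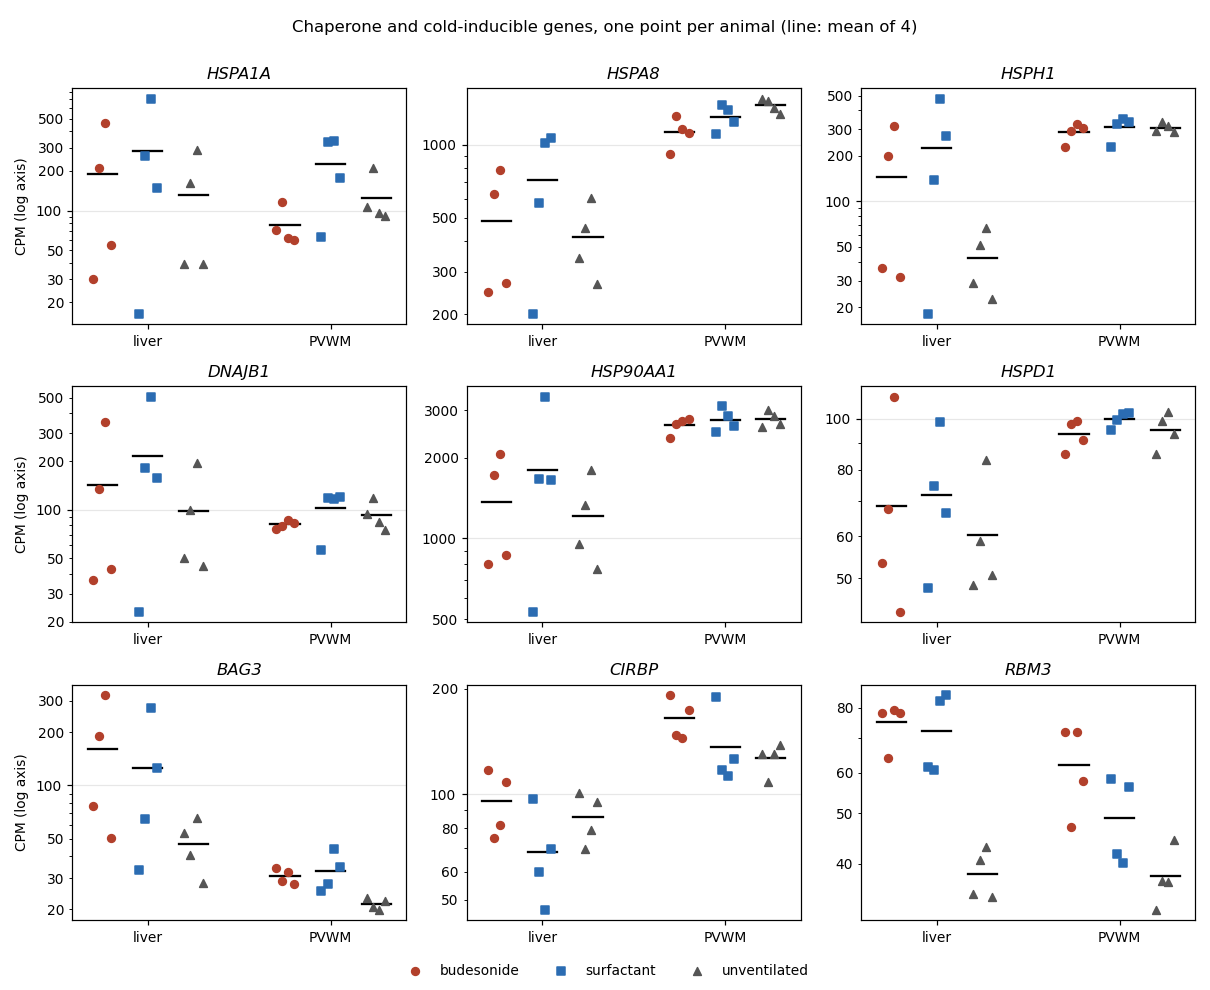
Level of each gene in CPM (log axis) in the liver and PVWM of every animal, with the mean of 4 animals as a line, for budesonide, surfactant and unventilated lambs. The liver levels of HSPA1A, HSPH1 and DNAJB1 spread over more than an order of magnitude, while RBM3 in unventilated livers lies below every ventilated liver.

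HSPA6, a strictly inducible HSP70 that is not among the 10 genes but belongs to the listed family, made the contrast between livers widest. It was at 4.19, 82.5, 479 and 7.52 CPM in budesonide livers, at 1.22, 127, 671 and 144 CPM in surfactant livers and at 2.31, 11.9, 47.7 and 1.65 CPM in unventilated livers. Animals 049 and 050 were the highest again, and animal 007 the lowest. HSPA1A and HSPA6 have closely related sequences, and the sources used here do not give how the counting treated reads that match both. In the RefSeq annotation of another assembly, ARS-UI_Ramb_v3.0, HSPA1A lies within the span of HSPA1L and HSPD1 overlaps MOB4. Without a stated strand setting, such reads are of uncertain origin.

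Against this spread the group comparisons of the chaperones in liver passed the test for few genes. Tests were edgeR quasi-likelihood tests with p-values adjusted by Benjamini-Hochberg over all genes of the tissue, called at under 0.05. Between surfactant and unventilated livers, 2 of 9 genes were called, both higher, where 41.1% of all 16824 genes tested were called and 21.6% were called higher. Both HSPH1 and RBM3 rose. HSPH1 averaged 225 ± 195 CPM in surfactant livers and 42.5 ± 20.5 CPM in unventilated livers (SD, n = 4 each), a log2 change of 2.41 ± 0.88 (SE, edgeR adjusted p = 0.0447). In 3 of 4 surfactant livers it was above every unventilated liver, and in animal 007 it was below them all. The call was lost when any of animals 032, 049 or 051 (surfactant), 048 (budesonide) or any 1 unventilated liver was left out, with edgeR adjusted p from 0.0528 to 0.149. With gestational age in the model the estimate was -0.32 (edgeR adjusted p = 0.931). With sex in the model it was 0.52 without animal 060, whose liver label has no sex, and 1.34 with that animal as female (edgeR adjusted p = 0.714 and 0.290).

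The other chaperones were not called between surfactant and unventilated livers. HSPA1A had a log2 difference of 1.09 ± 1.02 (SE, edgeR adjusted p = 0.412, 95% interval -0.90 to 3.09). DNAJB1 had 1.15 ± 0.86 and HSP90AA1 had 0.57 ± 0.48 (edgeR adjusted p = 0.299 and 0.360). The intervals of all 3 genes included 0 and large differences in the same direction. HSPA8 had 0.78 ± 0.50 (edgeR adjusted p = 0.223), and without animal 007 it had 1.10 (edgeR adjusted p = 0.0474). HSPD1 had 0.25 ± 0.30 (edgeR adjusted p = 0.522). Animal 007 was the lowest surfactant liver for each of these genes.

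Between budesonide and unventilated livers, 2 of 9 genes were called, both higher, where 47% of all genes were called and 23.3% were called higher. They were RBM3 and BAG3, an HSP70 co-chaperone that steers clients to selective autophagy. BAG3 was at 76.8, 190.3, 323 and 50.3 CPM in budesonide livers, against 53.6, 40.2, 65.6 and 28.2 CPM in unventilated livers, and the ranges overlapped. Its log2 change was 1.77 ± 0.65 (SE, edgeR adjusted p = 0.0401). The call was lost without animals 048 or 050 (budesonide), 051 (surfactant) or any 1 unventilated liver, with edgeR adjusted p from 0.0510 to 0.149, and without the low-count filter (edgeR adjusted p = 0.0745). With gestational age in the model the estimate was 0.0046. With sex in the model it was 0.66 without animal 060 and 1.20 with that animal as female (edgeR adjusted p = 0.456 and 0.160). BAG3 in liver was between 33.5 and 53.6 CPM in the 4 labelled males and between 64.4 and 323 CPM in the 7 labelled females. Animal 060, female by its PVWM label, was at 28.2 CPM in liver, below all of these males, so with it the sexes overlapped. In PVWM BAG3 was between 20.6 and 27.8 CPM in the 4 labelled males and between 19.9 and 43.9 CPM in the 7 labelled females. The share of all genes that separate by sex was not counted. Males made up 1 of 4 animals in each ventilated group and 2 of 4 in the unventilated group. Surfactant livers had 33.5, 64.4, 275 and 126 CPM of BAG3, a log2 difference of 1.41 ± 0.65 from unventilated livers (edgeR adjusted p = 0.0961), which was called without animal 007 (1.73, edgeR adjusted p = 0.0338) and by DESeq2 (1.45, DESeq2 adjusted p = 0.0384). HSPH1 had a log2 difference of 1.77 ± 0.87 between budesonide and unventilated livers (edgeR adjusted p = 0.110). Both comparisons with unventilated livers share those 4 controls.

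Budesonide added no called change to the 9 genes in liver. Between budesonide and surfactant livers 0 of 9 were called by edgeR or by DESeq2, where edgeR called 11.9% of all genes. At an unadjusted edgeR p under 0.05 there were 0 of 9, beside 5016 of all 16824 genes tested. The chaperone estimates were wide, with HSPA1A at -0.57 ± 1.01 (95% interval -2.56 to 1.41) and HSPH1 at -0.64 ± 0.84 on the log2 scale (edgeR adjusted p = 0.737 and 0.644). RBM3 had the tightest estimate, 0.05 ± 0.15 (95% interval -0.25 to 0.35). CIRBP was at 118, 75.0, 81.9 and 109 CPM in budesonide livers, against 96.8, 60.0, 46.8 and 69.6 CPM in surfactant livers. Its log2 difference was 0.49 ± 0.23 (edgeR adjusted p = 0.169), and without animal 007 it was 0.70 (edgeR adjusted p = 0.0387).

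RBM3 was the gene whose groups separated most plainly. In liver it was at 78.4, 63.9, 79.3 and 78.3 CPM in budesonide lambs and at 61.5, 60.6, 82.6 and 84.6 CPM in surfactant lambs, against 34.9, 40.7, 43.0 and 34.4 CPM in unventilated lambs. All 8 ventilated livers were above all 4 unventilated livers. Ranges did not overlap, with the ventilated group higher, for 23.7% of all genes between budesonide and unventilated livers and for 18.7% between surfactant and unventilated livers. RBM3 rose by a log2 change of 0.97 ± 0.16 with budesonide (edgeR adjusted p = 0.000314) and 0.92 ± 0.16 with surfactant (SE, edgeR adjusted p = 0.000743), both against unventilated livers. The first held under all 19 alternative settings, between 0.87 and 1.05. The second was 0.86 with gestational age in the model (edgeR adjusted p = 0.0518). Its spread within groups was small, with an SD of 0.20 on the log2 scale.

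Sums of inflammation genes and of myeloid markers were also higher in ventilated than in unventilated livers. A list of acute inflammation genes, 8 of 9 in the table, summed to between 322 and 345 CPM in budesonide livers, between 278 and 2503 CPM in surfactant livers and between 82.8 and 98.1 CPM in unventilated livers. Neutrophil and myeloid markers, 9 of 10 in the table and none at 0 in any liver library, summed to between 243 and 313 CPM in budesonide livers, between 266 and 575 CPM in surfactant livers and between 145 and 196 CPM in unventilated livers. With budesonide against unventilated, 4 of the 9 myeloid markers were called higher and 1 lower, and 2 of the 8 inflammation genes higher and 1 lower. With surfactant against unventilated, 7 of the 9 and 8 of the 8 were called higher. Because ventilated and unventilated livers formed separate clusters of RBM3, the relation was taken with group means removed. RBM3 then had r = 0.72 with the inflammation sum and r = 0.38 with the myeloid sum (exact permutation p = 0.326 and 0.460, adjusted p = 0.965 for both, n = 12). Their part in the RBM3 difference was not tested.

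CIRBP was called in none of the 3 liver comparisons. Besides the levels above, it was at 101, 70.0, 78.9 and 94.9 CPM in unventilated livers, and all 3 groups overlapped. The log2 difference was 0.15 ± 0.23 between budesonide and unventilated livers and -0.34 ± 0.23 between surfactant and unventilated livers (edgeR adjusted p = 0.605 and 0.250). Without animal 007 the second was -0.55 (edgeR adjusted p = 0.0450).

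**Figure D2:**
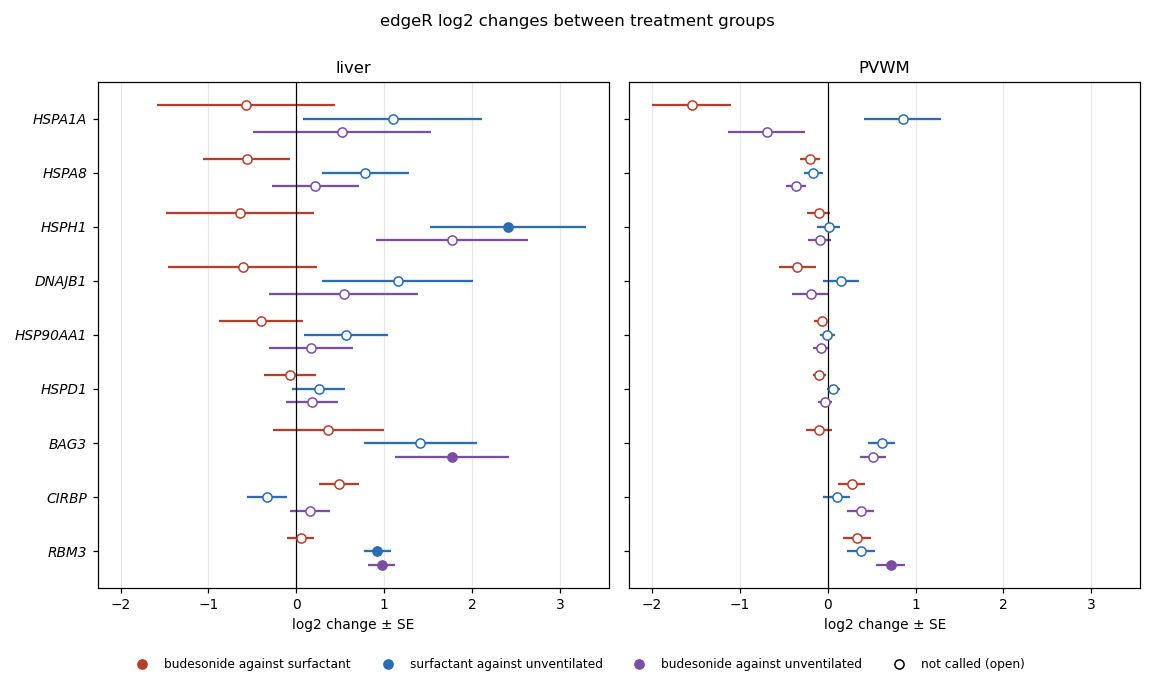
Log2 change with its SE for each gene in liver and PVWM, with a colour for each of the 3 comparisons between the groups. Filled points passed an edgeR adjusted p of 0.05. In liver RBM3 has narrow bars near 0.9 to 1.0 in both comparisons with unventilated lambs, while the chaperone bars are wide, and in PVWM only RBM3 with budesonide against unventilated is filled.

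In PVWM each chaperone spread less than in liver. HSPA1A spread the most of them there, 5.60-fold over the 12 libraries against 42.8-fold in liver. Over genes with a mean of at least 10 CPM, the median SD within groups was 0.17 on the log2 scale in PVWM and 0.29 in liver. HSPA1A was at 71.7, 117, 61.8 and 60.1 CPM in budesonide PVWM (animals 031, 048, 050 and 054), at 63.4, 330.5, 336 and 178 CPM in surfactant PVWM (animals 007, 032, 049 and 051) and at 106, 209.6, 96.2 and 90.7 CPM in unventilated PVWM (animals 057, 058, 060 and 061). Animals 032, 049 and 051 were above every budesonide PVWM, and animal 007 was within their range. The log2 difference between budesonide and surfactant was -1.55 ± 0.45 (95% interval -2.42 to -0.68), which did not pass adjustment over all genes (edgeR adjusted p = 0.145). Without animal 007 it was -1.86 (edgeR adjusted p = 0.0240). By edgeR or DESeq2 0 of 9 genes were called, where edgeR called 0.978% of all 18616 genes tested. At an unadjusted edgeR p under 0.05 there was 1 of 9, beside 2217 of the 18616.

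The other chaperones held narrower ranges than HSPA1A in PVWM, the widest being BAG3 at 2.21-fold and DNAJB1 at 2.16-fold over the 12 libraries. DNAJB1 was at 76.1, 79.1, 86.8 and 83.2 CPM with budesonide and at 56.1, 119, 117 and 121 CPM with surfactant, against 94.1, 119, 83.8 and 74.7 CPM in unventilated lambs. Animal 007 was again the lowest. HSP90AA1 ranged 1.32-fold over the 12 libraries, from 2374 to 3126 CPM, HSPH1 1.52-fold and HSPD1 1.20-fold. With these spreads the log2 intervals were narrow, for example -0.24 to 0.10 for HSP90AA1 between budesonide and surfactant.

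Between budesonide and unventilated PVWM, 1 of 9 genes was called, higher, where 8.06% of all genes were called and 4.35% were called higher. That gene was RBM3, at 71.8, 47.0, 71.7 and 57.8 CPM with budesonide, against 32.6, 37.1, 36.9 and 44.5 CPM in unventilated lambs. All 4 budesonide animals were above all 4 unventilated ones. RBM3 rose by a log2 change of 0.72 ± 0.16 (SE, edgeR adjusted p = 0.0158). The call was lost without animal 031 or animal 050 (edgeR adjusted p = 0.0514 and 0.0521) and with gestational age in the model, where the estimate was 0.92 (edgeR adjusted p = 0.0952). Surfactant PVWM had 58.3, 41.8, 40.2 and 56.2 CPM of RBM3 and overlapped both other groups, with a log2 difference of 0.38 ± 0.16 from unventilated PVWM (edgeR adjusted p = 0.300). Between budesonide and surfactant PVWM the log2 difference of RBM3 was 0.34 ± 0.16 and was not called (edgeR adjusted p = 0.437).

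BAG3, CIRBP and HSPA8 also had groups that did not overlap in PVWM without being called. BAG3 was at 34.0, 28.8, 32.4 and 27.8 CPM with budesonide and at 25.2, 27.9, 43.9 and 34.6 CPM with surfactant, against 23.2, 20.6, 19.9 and 22.2 CPM in unventilated lambs. All 8 ventilated animals were above all 4 unventilated ones. The log2 differences of BAG3 were 0.52 ± 0.15 for budesonide and 0.61 ± 0.15 for surfactant against unventilated (edgeR adjusted p = 0.0543 and 0.0585), and DESeq2 called both (adjusted p = 0.0189 and 0.00836). Without surfactant animal 007 edgeR called both (adjusted p = 0.0345 and 0.0205), and without surfactant animal 049 it called the first (adjusted p = 0.0157). CIRBP was at 191, 148, 145 and 174 CPM with budesonide, against 130.1, 108, 131 and 139 CPM in unventilated lambs, a log2 difference of 0.38 ± 0.16 (edgeR adjusted p = 0.180). HSPA8 went the other way, at 919, 1318, 1166 and 1124 CPM with budesonide, against 1548, 1515, 1418 and 1344 CPM in unventilated lambs. Its log2 difference was -0.36 ± 0.11 (edgeR adjusted p = 0.0695, DESeq2 adjusted p = 0.0269), and edgeR called it without animal 007 or animal 048 (adjusted p = 0.0489 and 0.0402). In this comparison the ranges of 3 genes were higher and 1 lower without overlap, where this held for 9.08% and 8.08% of all genes. Between surfactant and unventilated PVWM, 0 of 9 were called by edgeR and 1 by DESeq2, where edgeR called 2.05% of all genes. At an unadjusted edgeR p under 0.05 there were 2 of 9, beside 2742 of all 18616 genes tested. BAG3 alone had ranges that did not overlap there, higher with surfactant, as 4.7% of all genes had. Neutrophil and myeloid markers summed to between 34.1 and 47.0 CPM in budesonide PVWM, between 24.1 and 55.2 CPM in surfactant PVWM and between 13.5 and 18.5 CPM in unventilated PVWM. Of the 8 tested, 1 was called higher and 1 lower with budesonide against unventilated. With surfactant against unventilated 1 was called higher and 0 lower. In every budesonide PVWM, CXCR2, CSF3R, S100A8, S100A9, MPO and FCGR3A were under 1 CPM. Astrocyte markers summed to between 4741 and 5720 CPM with budesonide and between 5149 and 5986 CPM with surfactant, against 3650 to 4452 CPM in unventilated lambs, so that ventilated and unventilated animals did not overlap in the sum. Of the 5 astrocyte markers tested, 1 was called higher and 1 lower with budesonide, and 1 higher and 0 lower with surfactant, both against unventilated. Endothelial markers summed to between 158 and 193 CPM with budesonide and between 192 and 376 CPM with surfactant, against 219.6 to 247 CPM in unventilated lambs. Oligodendrocyte lineage markers summed to 11852 CPM in surfactant animal 051 and to between 894 and 2736 CPM in the other 11 animals. Without the PVWM of animal 051 no call of the 9 genes within PVWM changed. The part of these cell types in the RBM3, BAG3, CIRBP and HSPA8 differences was not tested.

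Whether liver and PVWM differed in these changes was tested directly in 1 edgeR fit of all 24 libraries, with the PVWM change subtracted from the liver change. In each of the 3 comparisons 0 of the 9 genes were called. The fit treated the 2 libraries of an animal as independent, and with the animal as a block 0 of the 9 were called as well. Of 20010 genes tested, 3.41% were called for budesonide against surfactant, 25.8% for surfactant against unventilated and 29.7% for budesonide against unventilated. At an unadjusted edgeR p under 0.05 there were 0, 2 and 1 of the 9 genes in that order, beside 3610, 7503 and 7948 of the 20010. The nearest were HSPH1 at 2.49 ± 0.92 and RBM3 at 0.61 ± 0.23, both for surfactant against unventilated (edgeR adjusted p = 0.0504 and 0.0503). Both were called without the liver of animal 007 (2.88 and 0.69, edgeR adjusted p = 0.00549 and 0.0229), as was HSPH1 for budesonide against unventilated (1.95, edgeR adjusted p = 0.0448). HSPA8 was then called too for surfactant against unventilated (1.35, edgeR adjusted p = 0.0219). In that comparison HSPH1 and RBM3 were each also called without 5 other single libraries.

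The chaperones moved together from animal to animal in liver, and CIRBP moved against them. Over the 12 livers, all 21 pairs of the 7 chaperones had a positive Pearson correlation of log2 CPM, between 0.74 and 0.98 (permutation tests, all 21 under an adjusted p of 0.05 over 72 pairs in both tissues). HSPA1A and DNAJB1 had r = 0.98 and Spearman rho = 0.95 (permutation p = 1e-05 for both, the smallest 100000 permutations can give, adjusted p = 0.00018 and 0.00036). Without the 2 livers farthest from the median of HSPA1A, r was 0.98 again. With group means removed all 21 pairs were again under 0.05, between 0.82 and 0.99 (exact permutation within groups). For HSPA1A the order ran from animal 007 at the low end to animals 050 and 049 at the high end.

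CIRBP ran the other way in both tissues. In liver HSPA1A and CIRBP had r = -0.82 and rho = -0.73 (permutation p = 0.00098 and 0.00999, adjusted p = 0.00294 and 0.0232), -0.80 without the 2 farthest livers, and -0.94 with group means removed (exact permutation, adjusted p = 0.00868). Animals 031, 054 and 057, which had little HSPA1A, had the highest CIRBP in liver, at 118, 109 and 101 CPM, and animal 049 had the lowest, at 46.8 CPM. In PVWM the same pair had r = -0.83 and rho = -0.83 (permutation p = 0.00139 and 0.00131, adjusted p = 0.00385 and 0.00524). It was -0.82 without the 2 farthest libraries and -0.87 with group means removed (exact permutation, adjusted p = 0.0210). Over the 7 chaperones, correlations with CIRBP lay between -0.84 and -0.50 in liver and between -0.87 and 0.07 in PVWM, and 6 and 5 of the 7 were under an adjusted p of 0.05 by permutation. The value of 0.07 was that of BAG3.

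With group means removed, the correlations of RBM3 with the 7 chaperones lay between 0.40 and 0.52 in liver, and 0 of 7 were under an adjusted p of 0.05 by exact permutation (0 of 7 also unadjusted). In PVWM the correlations of RBM3 with the 7 chaperones lay between -0.92 and 0.48, and 1 of 7 was under an adjusted p of 0.05 by permutation. With group means removed they lay between -0.83 and -0.11, again with 1 of 7. In both it was HSPA8. RBM3 and HSPA8 had r = -0.92 and rho = -0.94 (permutation p = 3e-05 and 2e-05, adjusted p = 0.00027 and 0.00036), -0.93 without the 2 farthest libraries and -0.83 with group means removed (exact permutation, adjusted p = 0.0228). CIRBP and RBM3 had r = 0.71 and rho = 0.73 in PVWM (permutation p = 0.00995 and 0.00851, adjusted p = 0.0199 and 0.0211). That pair was 0.58 without the 2 farthest libraries and 0.55 with group means removed (exact permutation, adjusted p = 0.162). The chaperones themselves were less tied in PVWM, with pairwise r between -0.40 and 0.83, and 10 of 21 pairs under an adjusted p of 0.05 by permutation. The count was 6 with group means removed, 5 by Spearman and 3 without the 2 farthest libraries.

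**Figure D3:**
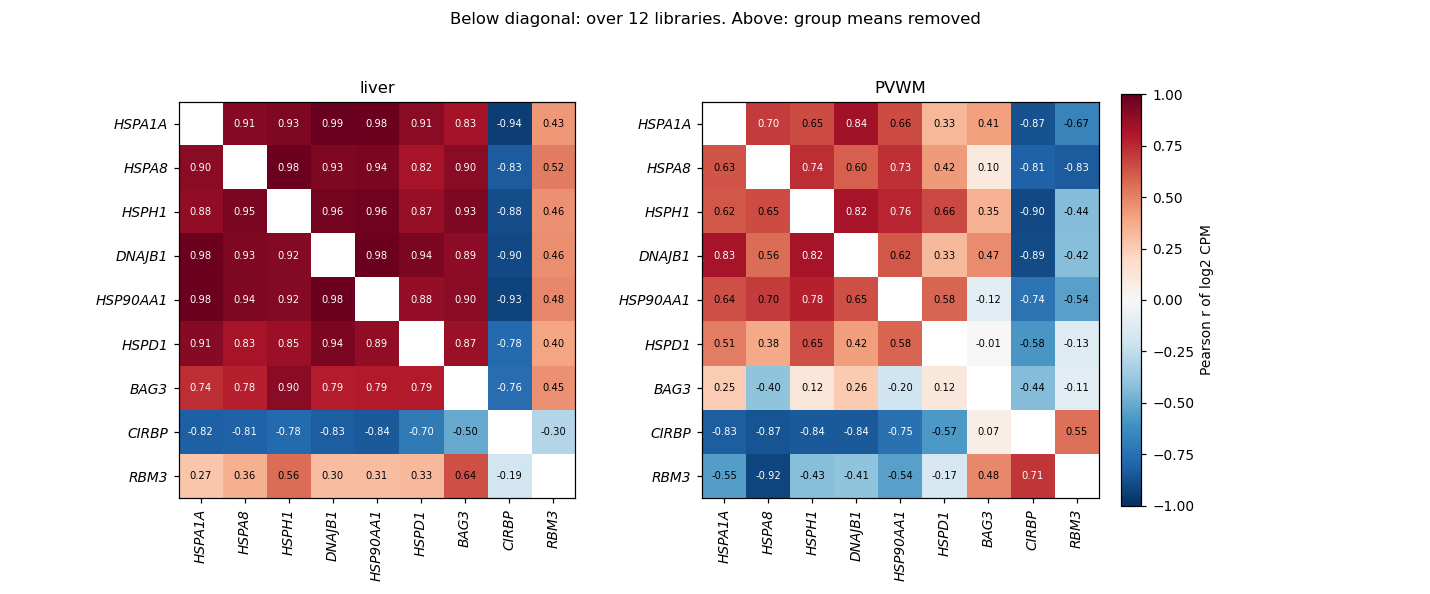
Pearson correlation of log2 CPM for each pair of genes in liver and PVWM, over 12 libraries below the diagonal and with group means removed above it. Liver shows a block of positive values among the 7 chaperones, 0.74 or more, and negative values for CIRBP with each of them.

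**Figure D4:**
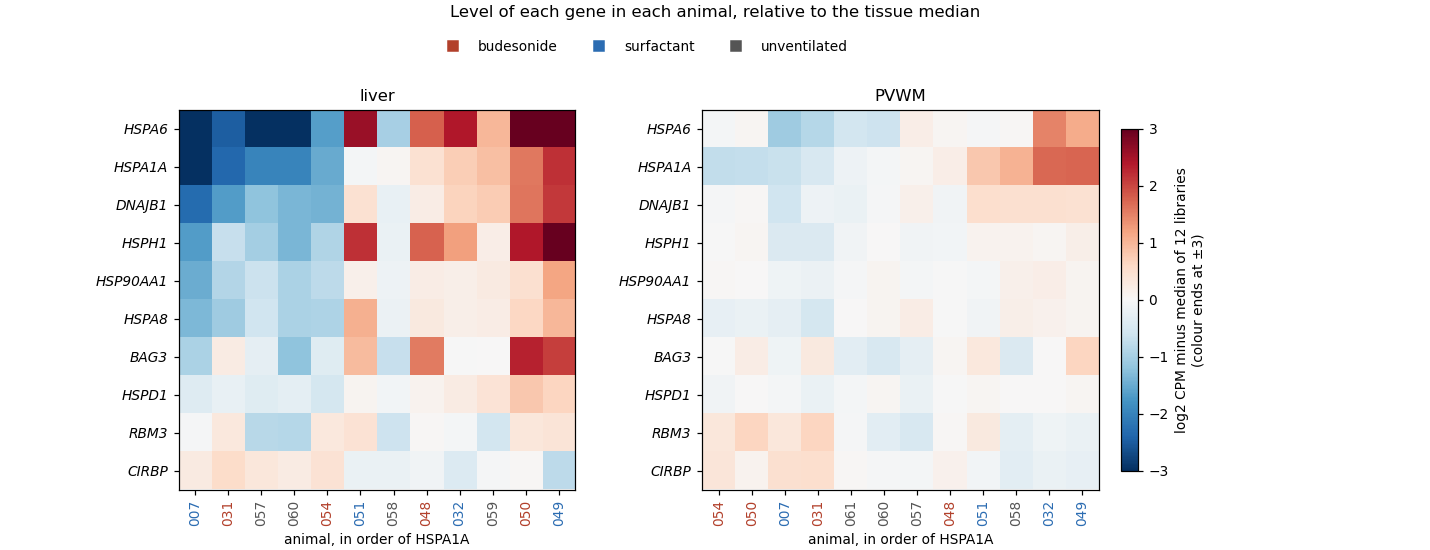
Log2 CPM of each gene in each animal relative to the median of 12 libraries, with animals ordered by HSPA1A within liver and within PVWM and animal numbers coloured by group. In liver the budesonide, surfactant and unventilated animals are mixed along the order, and CIRBP shades opposite to the chaperones.

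The order of the livers was set beside what the labels and libraries give. HSPA1A ranged from 16.5 to 161 CPM in the 4 labelled males and from 30.3 to 705 CPM in the 7 labelled females. Its correlation with total counts was 0.27, with genes detected -0.30 and with the inflammation sum 0.37 in liver (permutation p = 0.402, 0.333 and 0.244, adjusted over 24 relations 0.510, 0.510 and 0.488; Spearman rho 0.20, -0.43 and 0.27). With group means removed the value for genes detected was -0.62 (exact permutation p = 0.0361, adjusted p = 0.866). The part of sex, depth and inflammation in the order was not tested further.

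The same animals could be compared across tissues. Over the 11 animals with both, BAG3 had r = 0.80 and rho = 0.85 between liver and PVWM (permutation p = 0.00305 and 0.00137, adjusted over 9 genes 0.0226 and 0.0123). CIRBP had r = 0.77 and rho = 0.80 (permutation p = 0.00602 and 0.00471, adjusted 0.0226 and 0.0212). Animals 031 and 054 were high for CIRBP in both tissues, and animals 049 and 032 were low in both. Without the 2 animals farthest from the liver median, BAG3 had 0.73 and CIRBP 0.67 (permutation, adjusted p = 0.224 and 0.236, n = 9). With group means removed CIRBP had 0.93 (exact permutation p = 0.00116, adjusted p = 0.0104) and BAG3 0.75 (adjusted p = 0.0563). For CIRBP the adjusted permutation p was 0.0713 without animal 031 and 0.0501 without animal 054. For RBM3 ventilated and unventilated animals formed separate clusters, and with group means removed r was 0.29 (exact permutation, adjusted p = 0.397). HSPA1A had r = 0.62 and rho = 0.51 (permutation p = 0.0475 and 0.115, adjusted 0.0712 and 0.147). With group means removed it had 0.78 (exact permutation p = 0.0214, adjusted p = 0.0563). Animal 050, second highest in liver at 463 CPM, was among the lowest in PVWM at 61.8 CPM, and without it r was 0.88 (permutation, adjusted p = 0.00792). No other animal left out alone brought the adjusted p of HSPA1A under 0.05, and without animal 049 r was 0.48 (permutation, adjusted p = 0.211). Without the 2 animals farthest from the liver median r was 0.48 (permutation, adjusted p = 0.284, n = 9).

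**Figure D5:**
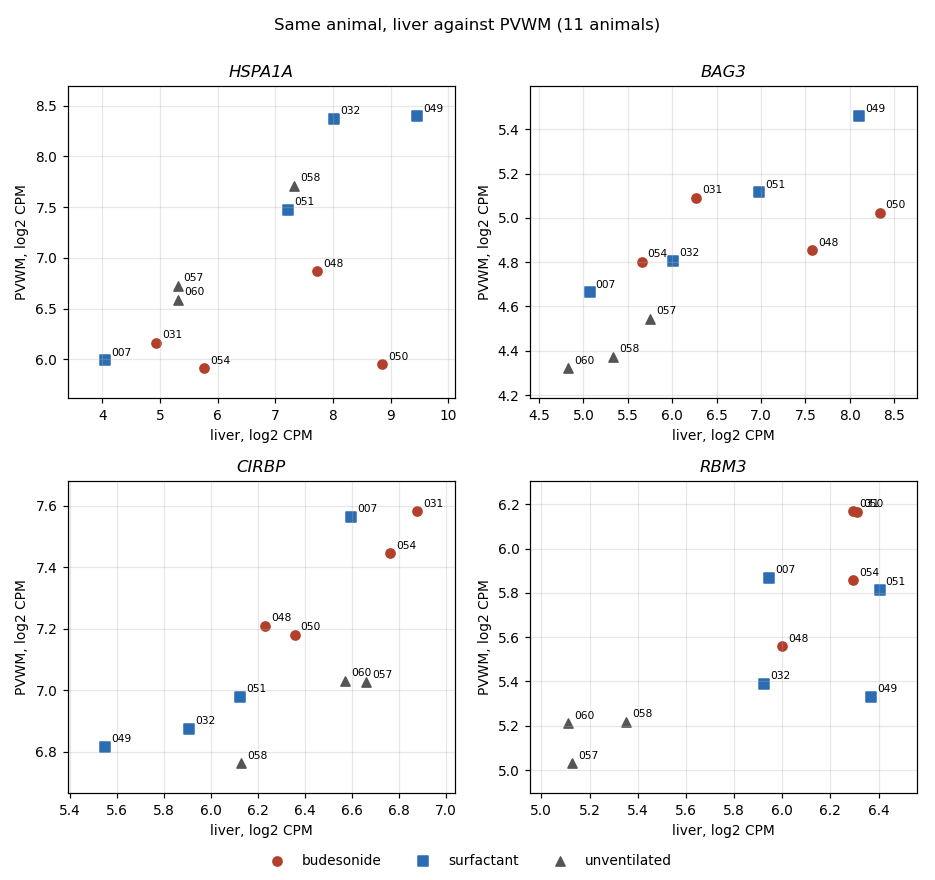
Log2 CPM in PVWM against log2 CPM in liver for HSPA1A, BAG3, CIRBP and RBM3, one point per animal for the 11 animals with both tissues, marked as budesonide, surfactant or unventilated. CIRBP (r = 0.77) and BAG3 (r = 0.80) move together in the 2 tissues, and the unventilated animals stand apart for RBM3.

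Genes most like HSPA1A and CIRBP were listed by Pearson correlation of log2 CPM over the 12 libraries of a tissue, as a description. In liver the nearest to HSPA1A among 13392 genes with a symbol were DNAJB1 (0.98), HSP90AA1 (0.98), STIP1 (0.97), HSPA6 (0.94) and CACYBP (0.93). STIP1 links HSP70 and HSP90. The nearest to CIRBP in liver were C1H3orf33 (0.94), VPS39 (0.92), TM7SF3 (0.91), CHMP1A (0.91) and PTCD1 (0.91). In PVWM, among 14247 genes, those nearest to HSPA1A were SH3BP2 (0.90), AHSA2 (0.89), ZCRB1 (0.85), KCNK3 (0.85) and DEDD2 (0.84), and among those nearest to CIRBP were LAS1L (0.92), XPO4 (0.91), INO80B (0.91) and ZNF311 (0.89). CIRBP ranked 13387th of 13392 for likeness to HSPA1A in liver and 14234th of 14247 in PVWM.

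The wider chaperone families were counted from lists of related genes, and these lists can hold genes already described. HSPA1A, HSPA8 and HSPH1 are in the HSP70 and HSP110 list, and DNAJB1, HSP90AA1 and BAG3 in the J-domain, HSP90 and BAG lists. Of 12 HSP70 and HSP110 genes tested in liver, 2 rose with surfactant and 2 with budesonide against unventilated, and 0 fell. HSPH1 was among those that rose with surfactant. HSPA13, an HSP70 relative of the endoplasmic reticulum, averaged 358 ± 66.8 CPM in budesonide livers and 315 ± 88.6 CPM in surfactant livers, against 124 ± 21.2 CPM in unventilated livers (SD, n = 4 each). Its log2 change was 1.53 ± 0.22 with budesonide and 1.35 ± 0.22 with surfactant (SE, edgeR adjusted p = 0.000135 and 0.000524), and with gestational age in the model the second had an adjusted p of 0.0577. In PVWM it was between 153 and 163 CPM with budesonide and between 109 and 165 CPM in unventilated lambs, and the liver change exceeded the PVWM change by 1.55 and 1.47 on the log2 scale for budesonide and surfactant against unventilated (edgeR adjusted p = 7.34e-05 and 0.000175). Of 24 J-domain genes of the cytosol and nucleus, 8 rose and 1 fell with budesonide and 9 rose and 5 fell with surfactant in liver, both against unventilated. DNAJC12 was among those that rose, by 1.61 ± 0.31 with budesonide and 2.21 ± 0.32 with surfactant (log2 ± SE, edgeR adjusted p = 0.00126 and 0.000285). Of 8 family members of the endoplasmic reticulum, 5 rose and 1 fell with budesonide and 4 rose and 1 fell with surfactant. DNAJB9, which helps the endoplasmic HSP70 recognise misfolded proteins, averaged 531 ± 57.7 CPM in budesonide livers and 478 ± 176 CPM in surfactant livers, against 133 ± 39.8 CPM in unventilated livers, log2 changes of 1.99 ± 0.26 and 1.84 ± 0.26 (edgeR adjusted p = 8.24e-05 and 0.000249). Over all genes, 23.3% were called higher and 23.7% lower with budesonide and 21.6% higher and 19.5% lower with surfactant, so counts near these shares say nothing particular of a list.

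BAG1, a nucleotide exchange partner of HSP70, separated ventilated from unventilated livers with little spread. It averaged 44.1 ± 1.70 CPM in budesonide livers and 43.0 ± 5.67 CPM in surfactant livers, against 19.4 ± 1.54 CPM in unventilated livers. Its log2 change was 1.18 ± 0.13 and 1.15 ± 0.13 (SE, edgeR adjusted p = 2.81e-05 and 6.17e-05). Against the same shares over all genes, of the 9 BAG proteins and partners 4 rose and 1 fell in each of these comparisons. BAG3 was among those that rose with budesonide. Of 14 mitochondrial chaperones and proteases, 5 rose and 0 fell with budesonide and 5 rose and 2 fell with surfactant. Of 14 subunits of the chaperonin TRiC and of prefoldin, 4 rose and 1 fell with budesonide and 4 rose and 0 fell with surfactant. Of 10 heat shock factors and their regulators, 3 rose and 3 fell with budesonide and 4 rose and 3 fell with surfactant. Of 6 small heat shock proteins, 0 rose and 1 fell in each, and the gene that fell was HSPB2, between 0.29 and 0.90 CPM in budesonide livers and between 4.59 and 6.84 CPM in unventilated livers. Of 11 HSF1 target genes that are not chaperones, 4 rose and 2 fell with budesonide and 5 rose and 0 fell with surfactant, led by ATF3, a stress-induced transcription factor, at 3.38 ± 0.54 and 4.69 ± 0.57 on the log2 scale (edgeR adjusted p = 0.000331 and 0.0001).

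FKBP5, a co-chaperone of HSP90 in steroid receptor complexes and a textbook glucocorticoid target, was highest with budesonide, lower with surfactant and lowest in unventilated lambs in both tissues. In liver it was between 457 and 526 CPM with budesonide, between 61.9 and 151 CPM with surfactant and between 13.9 and 43.6 CPM in unventilated lambs. In PVWM it was between 401 and 478 CPM with budesonide, between 113 and 183 CPM with surfactant and between 14.1 and 21.8 CPM in unventilated lambs. In each tissue the 3 ranges did not overlap. It rose with budesonide against surfactant by 2.42 ± 0.34 in liver and 1.52 ± 0.15 in PVWM (log2 ± SE, edgeR adjusted p = 0.00168 and 0.000983). Of the 16 HSP90 genes and co-chaperones, 2 rose and 0 fell in liver and 1 rose and 0 fell in PVWM in that comparison, where 4.01% of all genes were called higher and 7.85% lower in liver and 0.591% higher in PVWM. With surfactant against unventilated FKBP5 rose by 1.69 ± 0.33 in liver and 3.03 ± 0.17 in PVWM (edgeR adjusted p = 0.00181 and 2.45e-06), and the liver call was lost with gestational age in the model (edgeR adjusted p = 0.0962). The liver change was smaller than the PVWM change by 1.28 on the log2 scale there (log2 difference -1.28, edgeR adjusted p = 0.0170).

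Among 14 cold-inducible and temperature-responsive RNA-binding genes, 7 rose and 0 fell with budesonide and 4 rose and 0 fell with surfactant in liver against unventilated, where 23.3% and 21.6% of all genes rose. In PVWM 3 rose and 1 fell with budesonide and 1 rose and 0 fell with surfactant, where 4.35% of all genes rose and 3.71% fell with budesonide and 1.35% rose with surfactant. The leading gene in each was YBX3, a cold shock domain protein that binds RNA. It averaged 179 ± 37.9 CPM in budesonide livers and 137 ± 75.5 CPM in surfactant livers, against 16.5 ± 1.83 CPM in unventilated livers (SD, n = 4 each). Its log2 change was 3.44 ± 0.36 and 3.05 ± 0.36 in liver (SE, edgeR adjusted p = 2.14e-05 and 7.76e-05). In PVWM it averaged 20.6 ± 2.42 CPM with budesonide and 16.95 ± 7.44 CPM with surfactant, against 7.90 ± 0.88 CPM in unventilated lambs, log2 changes of 1.38 ± 0.23 and 1.10 ± 0.23 (edgeR adjusted p = 0.00256 and 0.0292). The PVWM call with surfactant was lost without any 1 of the 4 unventilated animals, and both PVWM calls were lost with gestational age in the model. The liver change exceeded the PVWM change by 2.13 for budesonide and 2.03 for surfactant against unventilated (log2, edgeR adjusted p = 0.000755 and 0.00154).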

How the data were processed

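The authors deposited whole-number counts per gene for 12 liver and 12 PVWM libraries. Per the labels, RNA came from a Trizol extraction, and poly-A selected libraries were sequenced paired-end. Per the submitters' processing notes Bowtie2, featureCounts and edgeR were used, and the sources used here give no versions, strand settings or genome build. Groups, ages, sexes and animal numbers came from the labels, and 0 columns lacked a sample. Nothing in the counts pointed to a library deposited again as another sample (36 within-group pairs, chi-square per degree of freedom 8.75 or more).

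From the counts, edgeR 4.0.16 (R 4.3.3) kept 16824 liver and 18616 PVWM genes by filterByExpr, scaled them by TMM (trimmed mean of M values), and the 3 groups of a tissue were fitted in 1 robust quasi-likelihood model. SE is the absolute log2 change over the square root of F. CPM are after scaling, and log2 CPM used a prior count of 2. The tissue difference was fitted over 24 libraries and 6 groups. Same-numbered libraries of the 2 tissues are from 1 animal by the labels. With group means removed, the 11 pairs correlated at 0.0784 to 0.199, 6 over 0.1, so a replicate block for the animal was an alternative. Taken gene by gene over the 11 animals, the 9 genes correlated more between tissues, at 0.29 (RBM3) to 0.93 (CIRBP) with group means removed. Correlations used permutation tests (100000, or all 13824 or 3456 within-group orders) in scipy 1.17.1. Intervals are 95%. In simulated counts for budesonide against surfactant, edgeR called 15 of 50 genes changed 2-fold and 47 of 50 changed 4-fold in liver (16620 genes), and 32 and 46 of 50 in PVWM (18463 genes), with 6 false calls in each. These rates were not split by spread. They do not give the rate for genes as variable in liver as HSPA1A, HSPH1 and DNAJB1. The SD of these genes within groups was 1.88, 1.59 and 1.50 on the log2 scale, against a median of 0.29. Alternatives were DESeq2 1.42.0, median-ratio scaling, no filter, only the 2 groups compared, age or sex as a covariate, and each library left out. Those for correlations, and sex with animal 060 as female, were chosen after seeing the data.

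The 10 genes and all lists were chosen with earlier results of these data known. The text names all of the 10, the called gene with the smallest adjusted p per list, direction, tissue and comparison (38 such genes, of which those described were chosen mainly for keeping their call in most alternatives), and the 5 genes nearest to HSPA1A and CIRBP, of which 1 is not reported here. HSPA6 was named after its values were seen. Locus identifiers such as that of YBX3 were named through the RefSeq gene table of ARS-UI_Ramb_v3.0, and no coordinates of it are given.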

Additional observations from a re-analysis of the deposited data

Results flagged for a closer look

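Within each group of 4 animals, the highest or lowest level was set against the gap to its nearest neighbour, for the 9 genes and HSPA6 in both tissues. Of 60 groups, 5 had an animal far from the other 3. Chance gives about 1 in 20 if CPM are normally distributed within a group, which was not tested. RBM3 in budesonide livers was 63.86 CPM in animal 048, with the next at 78.33 CPM. HSPA6 in budesonide livers was 478.5 CPM in animal 050, with the next at 82.5 CPM. HSPA1A in unventilated PVWM was 209.6 CPM in animal 058, with the next at 105.7 CPM. DNAJB1 in surfactant PVWM was 56.05 CPM in animal 007, with the next at 117.0 CPM. HSPA6 in budesonide PVWM was 1.568 CPM in animal 031, with the next at 2.83 CPM.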

How the results depend on the processing

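Of 81 results for the 9 genes (9 comparisons each), 5 were called by edgeR, of which RBM3 in budesonide against unventilated livers kept its call under every alternative and 4 lost it under at least 1. Of 71 called results for the 38 listed genes with the smallest adjusted p, 21 kept their call under every alternative and 50 lost it under at least 1. Of the 76 results of the 9 genes not called, 12 were called under at least 1 alternative. With gestational age as a covariate, 0 of 9 genes were called for surfactant against unventilated livers, 1 for budesonide against unventilated livers and 0 for budesonide against unventilated PVWM, and HSPH1 reversed to -0.32 for surfactant against unventilated livers. With sex as a covariate, with animal 060 left out or as female, 1 gene was called in each liver comparison with unventilated lambs, and likewise 1 without the low-count filter. DESeq2 called 3 genes for surfactant against unventilated livers, 1 for surfactant against unventilated PVWM and 3 for budesonide against unventilated PVWM, and the 2 groups alone gave 2 for budesonide against unventilated PVWM. Leaving out each library in turn, the count of called genes ranged from 0 to 1 for budesonide against surfactant in liver and in PVWM, from 1 to 5 for surfactant against unventilated livers, from 1 to 2 for budesonide against unventilated livers, from 0 to 1 for surfactant against unventilated PVWM and from 0 to 3 for budesonide against unventilated PVWM. For the tissue difference it ranged from 0 to 3 for surfactant against unventilated, from 0 to 1 for budesonide against unventilated and from 0 to 0 for budesonide against surfactant. The replicate block for the animal left 0 called in all 3 tissue differences. Over all genes, calls for budesonide against surfactant livers (1994) were 3170 with DESeq2, 884 with 2 groups alone and 1007 to 1127 without animal 031, 048 or 049. For surfactant against unventilated livers (6911) they were 1398 with age and 4273 with sex, and for budesonide against unventilated livers (7903) 2958 with age. In PVWM they were 562 with DESeq2, 69 with 2 groups alone, 80 with sex and 66 to 115 with 1 library left out for budesonide against surfactant (182). For surfactant against unventilated PVWM (382) they were 819, 174, 97 with sex, 15 with age, and 197 and 173 without animals 060 and 061. For budesonide against unventilated PVWM (1501) they were 346 with age, 668 with sex and 998 without animal 054. For the tissue difference of budesonide against surfactant (683) they were 428 with the replicate block and 419 to 1476 with 1 library left out. Of 45 pair correlations called, 40 were kept by Spearman, 38 with group means removed and 31 without the 2 farthest libraries, and HSPA8 with HSPH1 in PVWM reversed to -0.0042 there. Why these counts moved was not tested.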
